A study of Homo sapiens with 2 samples.

Results

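Tight junction genes were compared between monolayer cells and spheroids labelled as the colorectal cancer line HT-29. The genes were the claudins CLDN1, CLDN2, CLDN3, CLDN4, CLDN7 and CLDN12, occludin (OCLN), ZO-1 (TJP1) and JAM-A (F11R). They were chosen by name, and every probe set that the platform annotation assigns to one of them was taken. Of the 9 genes, 8 had a probe set of their own, out of 19775 genes on the array, and F11R was not analysed here. The 8 genes had 15 probe sets assigned to them alone, and 1 more was shared by CLDN12 and PTTG1IP2.

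The monolayer cells were kept on treated plates in DMEM/F-12 with 10% fetal bovine serum. The spheroids were made from such cells on low adhesion plates in stem cell media with B27 supplement and epidermal and fibroblast growth factors, and were harvested at day 5. Serum, growth factors and attachment therefore differed together and cannot be told apart. RNA was hybridized to Human Genome U133 Plus 2.0 arrays. The methods of the study mention duplicate arrays, but the table used here holds 1 for monolayer and 1 for spheroids, so no difference has a replicate check and no test was run.

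Tight junctions close the space between neighbouring epithelial cells near their apical side. Claudins are membrane proteins that form the strands of the junction, and each kind sets how freely ions pass between cells. Occludin and JAM-A are further membrane proteins of the junction, and ZO-1 is the scaffold under the membrane that ties them to actin. In the colon the junction is the barrier between the lumen and the tissue.

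Values are MAS5 signals, intensities on a linear scale. A signal under 62.7, the median of all signals on both arrays and called the floor here, was set to it before log2 was taken, and each gene was read from its brightest probe set, called its main probe set. Differences are spheroid minus monolayer on the log2 scale. The 13183 genes that passed the floor in 1 or both cultures, called measured here, had a median difference of -0.05. Probe sets that passed the floor in both cultures lay around the mean of their gene with an SD of 0.41, over 5506 genes. The spike-in controls for hybridization gave less signal from the spheroid sample in 18 of 18 probe sets, by a mean difference of -0.25. Of 12 markers of colon epithelium, 6 were above the floor on both arrays, with EPCAM (21151 in monolayer, 22299 in spheroids), CDH1 (4544 and 6059) and KRT20 (99.6 and 218) higher in spheroids and KRT8 (8497 and 6762), KRT18 (29713 and 22627) and KRT19 (21966 and 17908) lower. The markers CDX1, LGALS4, CDH17 and TSPAN8 were below it on both, and VIL1 and CDX2 were above it on 1 array. The identity of the cells was not tested beyond these markers. One marker each of fibroblasts (COL1A1, 1369.7 and 1972), of endothelium (PECAM1) and of leukocytes (ITGAM) was above the floor on both arrays. The summed signals of these lists in monolayer and spheroids were 86213 and 76071 for the 12 genes of colon epithelium and 1615 and 2315 for 8 fibroblast genes. They were 309 and 205 for 7 endothelial genes and 433 and 238 for 8 of 9 leukocyte genes. Signals below the floor entered these sums as they were. Below it on both arrays were 4 epithelial, 5 fibroblast, 6 endothelial and 5 leukocyte genes, so the endothelial and leukocyte sums are no measure of such cells. The part of these cell types in the differences was not tested.

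The tight junction genes had differences under 2-fold between the arrays, apart from CLDN2. Of the 7 genes above the floor, 1 was lower in spheroids by 2-fold or more, CLDN2, and 0 were higher by as much. Among all measured genes 3.08% were lower to that extent and 2.53% were higher. The median difference of the 7 genes was 0.02, with CLDN4 highest at 0.61 and CLDN2 lowest at -1.26. TJP1, CLDN7 and OCLN were within 0.1 of no difference by their main probe sets.

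**Figure D1:**
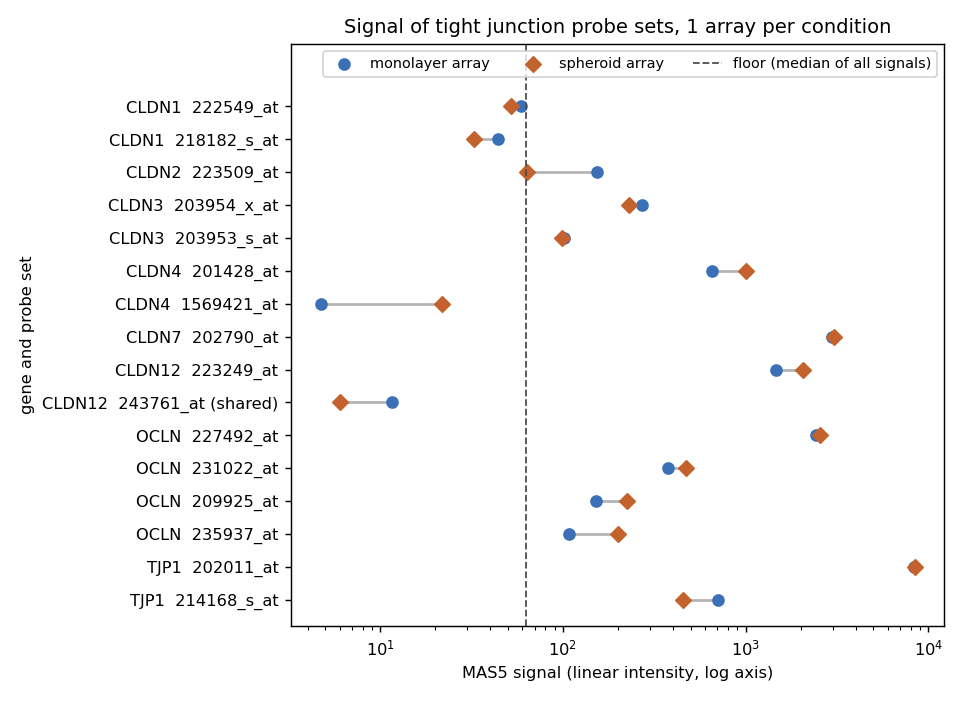
MAS5 signal (log axis) of each probe set of the tight junction genes on the monolayer array (circles) and the spheroid array (diamonds), 1 array per condition. CLDN2 goes from 153 to 63.8, next to the dashed floor of 62.7, both CLDN1 probe sets lie left of the floor, and all 4 OCLN probe sets are higher in spheroids.

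CLDN2, the claudin that forms channels for cations and water in leaky epithelia, gave 153 with monolayer RNA and 63.8 with spheroid RNA on its only probe set. This is 2.40-fold lower in spheroids, and 169 of the 13183 measured genes had a difference as low or lower. The spheroid signal was 1.02 times the floor, so the size of the difference rests on where the floor is set. With a floor of 89.2, the 95th percentile of 135 probe sets for olfactory receptors, the spheroid signal was below it and the gene was lower by a bound of -0.78 on the log2 scale, which is short of 2-fold. In the tenth of the measured genes by mean signal that holds CLDN2, 9.56% were at least 2-fold lower, against the 3.08% over all measured genes. In the RefSeq annotation CLDN2 overlaps RIPPLY1, and their signals were not separated here.

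CLDN4, a claudin that tightens the barrier, and its neighbour CLDN3 lie next to each other on chromosome 7, with no annotated gene between them. CLDN4 gave 653 with monolayer RNA and 999 with spheroid RNA, 1.53-fold higher, and 8.63% of the measured genes had a difference as high. Its second probe set was below the floor on both arrays, at 4.73 and 21.7. CLDN3, also a barrier-forming claudin, went from 269 to 229 by its main probe set and from 102 to 99.3 by the other, log2 differences of -0.24 and -0.04. The letters s and x in the names of these CLDN3 probe sets mark probes that may bind other transcripts as well. The gap between the differences of CLDN4 and CLDN3 was 0.85. Scaling to the spike-ins moved CLDN3 from -0.24 to 0.01 and CLDN4 from 0.61 to 0.86, the same shift for both. CLDN4 was above 0 under each of the 11 alternative settings that gave a value. Those that changed the floor or the choice of probe set left it at 0.61 and could not have moved it. Its only probe set above the floor had signals above each floor tried.

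CLDN12, which lacks the tail by which other claudins bind ZO-1, went from 1459.8 to 2068, which is a log2 difference of 0.50. The probe set it shares with PTTG1IP2 was below the floor, at 11.5 and 6.05. CLDN7, found along the lateral membrane of epithelial cells as well as in the junction, had signals of 2982 and 3027. Its log2 difference of 0.02 became -0.05 when the arrays were scaled to equal medians and 0.27 when they were scaled to the spike-ins. CLDN7 overlaps ELP5 in the annotation. CLDN1, a claudin that seals the junction, was below the floor on both arrays by both of its probe sets. Their signals were 58.7 in monolayer and 51.9 in spheroids for the one and 43.8 and 32.7 for the other, so no fold is given, and a level below the floor is not shown to be absent.

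Occludin differed between its probe sets in size and not in direction. The main probe set of OCLN went from 2432 in monolayer to 2546 in spheroids, or by 0.07 on the log2 scale. The other probe sets went from 376 to 471, from 152 to 224 and from 108 to 201, with differences of 0.32, 0.56 and 0.90. All 4 were thus higher in spheroids, and the difference was larger the lower the signal of the probe set. Of 581 genes for which 4 probe sets passed the floor in both cultures, 33.9% had all 4 on one side of 0, and 43.5% had a gap between the highest and the lowest as large as the 0.83 of OCLN. The probe sets measured the same RNA and are not replicates. The annotation also holds a pseudogene, OCLNP1, and whether any probe set binds its transcript was not tested. With the arrays scaled to equal medians the first probe set was at -0.01.

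The ZO-1 gene TJP1 had probe sets that did not go the same way. The main one gave 8370.4 with monolayer RNA and 8418 with spheroid RNA, or 0.01 on the log2 scale. The other, whose name carries the letter s, went from 708 to 455, which is 1.56-fold lower. The gap of 0.65 between them was reached by 22.6% of 3149 genes for which 2 probe sets passed the floor in both cultures. The direction of TJP1 is therefore not settled: scaling to equal medians gave -0.07 and the median of its probe sets -0.31, while scaling to the spike-ins gave 0.25. Quantile normalization gave 0.04, scaling to GAPDH 0.02 and the probe set with a plain name 0.01.

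**Figure D2:**
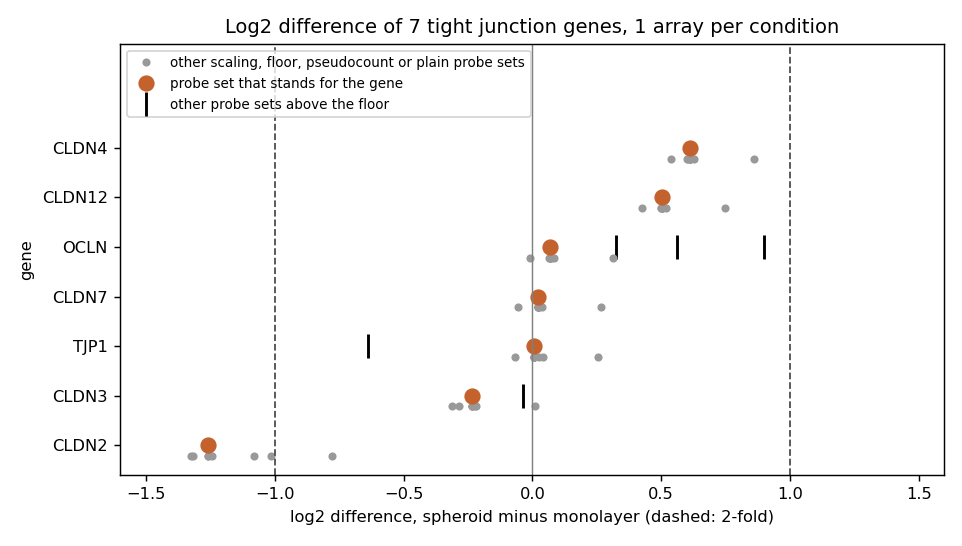
Log2 difference between the spheroid and the monolayer array for the 7 tight junction genes above the floor. Large dots show main probe sets, black ticks the other probe sets that passed the floor in both cultures, small grey dots the values under other scalings, floors, a pseudocount and plain probe sets, and dashed lines mark 2-fold. CLDN2 at -1.26 is the only large dot past a dashed line, and 1 of its grey dots, at -0.78, is inside.

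**Figure D3:**
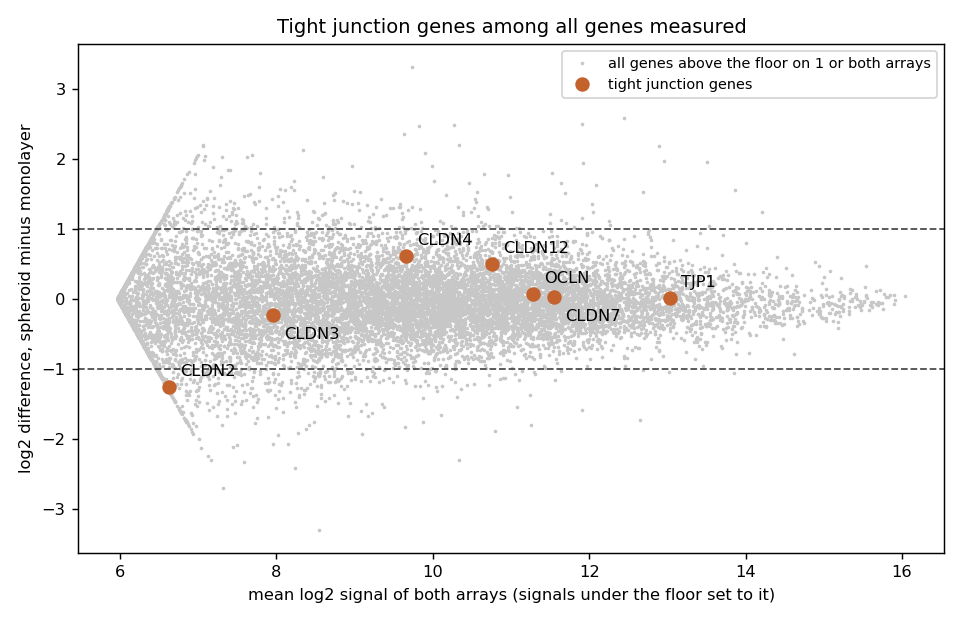
Log2 difference (spheroid minus monolayer) against the mean log2 signal of both arrays for 13183 genes (grey), with the 7 tight junction genes marked and dashed lines at 2-fold. CLDN2 lies at the low end of signal, next to the slanting lower edge that the floor makes, and the other 6 lie between the dashed lines.

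The bases before the start of transcription are shown for CLDN2, the gene past 2-fold, for the neighbours CLDN3 and CLDN4, whose differences had opposite signs, and for OCLN, whose probe sets were all higher. Each run holds the 250 bases before the outermost start in RefSeq (build GRCh38.p14), read 5′ to 3′ on the strand of the gene. They lie at chrX:106899914-106900163 (plus strand), chr7:73770271-73770520 (minus), chr7:73830746-73830995 (plus) and chr5:69492297-69492546 (plus). Capitals mark TTTAT or its reverse ATAAA, the core of sites for CDX homeobox factors, and the E-box CACCTG or its reverse CAGGTG, which SNAI1 and ZEB repressors bind.
CLDN2: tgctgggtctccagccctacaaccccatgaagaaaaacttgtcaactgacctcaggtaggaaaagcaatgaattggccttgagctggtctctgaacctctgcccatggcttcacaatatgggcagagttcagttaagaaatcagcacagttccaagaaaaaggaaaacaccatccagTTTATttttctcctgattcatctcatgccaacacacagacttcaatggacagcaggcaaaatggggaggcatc
CLDN3: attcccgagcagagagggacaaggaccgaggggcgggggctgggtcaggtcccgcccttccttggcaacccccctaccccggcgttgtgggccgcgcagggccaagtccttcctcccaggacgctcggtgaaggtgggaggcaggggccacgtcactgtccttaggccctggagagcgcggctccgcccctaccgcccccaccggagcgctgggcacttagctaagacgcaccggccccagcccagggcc
CLDN4: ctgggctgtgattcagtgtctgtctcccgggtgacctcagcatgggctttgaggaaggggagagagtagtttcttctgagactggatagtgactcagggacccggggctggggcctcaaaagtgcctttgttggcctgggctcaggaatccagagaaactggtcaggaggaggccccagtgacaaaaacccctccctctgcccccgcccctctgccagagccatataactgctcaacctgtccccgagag
OCLN: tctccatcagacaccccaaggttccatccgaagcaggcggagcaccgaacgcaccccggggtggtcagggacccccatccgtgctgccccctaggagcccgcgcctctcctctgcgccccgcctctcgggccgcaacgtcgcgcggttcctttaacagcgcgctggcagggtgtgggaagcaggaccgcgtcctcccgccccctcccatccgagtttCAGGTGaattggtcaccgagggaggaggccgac

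The CLDN2 stretch holds 1 TTTAT, at position -73 from the start, and no CACCTG on either strand. The OCLN stretch holds 1 CAGGTG at position -33, and the CLDN3 and CLDN4 stretches hold neither motif. G and C made up 46% of the CLDN2 stretch, 71.6% of CLDN3, 58.8% of CLDN4 and 68.8% of OCLN, where the median of all promoters was 58%. Over all 14 starts of the 8 genes, 4 had the E-box and 3 had TTTAT, and 17.5% and 32.7% of 35116 promoters of this length held them. The stretch before the inner start of CLDN7 held the E-box 4 times. A match of letters is a description and no measure of binding.

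Other genes of the junction were described from 4 lists. Among 15 other claudins, 7 were above the floor on 1 or both arrays, 7 were below it on both, and CLDN22 shares its probe sets with WWC2. CLDN19, known from the kidney and the eye, was at 58.1 in monolayer, under the floor, and 252 in spheroids, at least 4.02-fold higher. Another of its probe sets was at 0.29, and with probe sets whose names carry no letter 0 claudins of the list were past 2-fold. CLDN15, a cation channel of the gut, went from 308 to 206 (log2 difference -0.58), but its second probe set was at 0.94. CLDN23 went from 326 to 245. The median of the 7 was -0.41, and 0.18 when each gene was read as the median over its probe sets. Only 2 of the 7, CLDN15 and CLDN23, were above the floor on both arrays. The others have bounds, with a sign set by the array on which they passed the floor, so this median is no level for the list.

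Among 11 other membrane proteins of the junction 8 were measured, with a median difference of 0.07. Of these, 1 was higher by 2-fold or more and 0 were lower by as much, against 2.53% and 3.08% of all measured genes. CLMP, an adhesion molecule of the junction, went from 80.3 to 183, 2.27-fold higher. Its monolayer signal was under the floor of 89.2 from olfactory receptors, and its other probe set was below the floor of 62.7 on both arrays. The count of genes in this list at least 2-fold higher was 0 with the floor at the 75th percentile and 2 after scaling to the spike-ins. CXADR, the receptor for coxsackieviruses and adenoviruses, went from 2939.6 to 5499, 1.87-fold higher, and its 4 probe sets had differences from 0.04 to 0.90. Tricellulin (MARVELD2), which sits where several cells meet, went from 1831 to 2305. The angulins ILDR1 and ILDR2, which bring tricellulin there, were lower, with 209 and 137 for ILDR1 and 227 and 128 for ILDR2.

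Of 16 other scaffold and plaque genes 10 were measured, and 8 of them were under 0, with a median of -0.36. Of all measured genes 54.8% were under 0. The median of the list was -0.12 after scaling to the spike-ins, where that of all measured genes was 0.18. It was -0.18 with genes read as the median over their probe sets and -0.23 when the floor was the 75th percentile. All measured genes then had medians of -0.03 and -0.06. ARHGEF11, an exchange factor recruited by ZO-1, gave 154 with monolayer RNA and 40.3 with spheroid RNA. The latter is under the floor, so it was at least 2.46-fold lower, while another of its probe sets was at 0.40. With the floor of 89.2, with the floor at the 75th percentile and with genes read as the median over their probe sets, 0 genes of the list were at least 2-fold lower. TJP3, the gene of ZO-3, went from 454 to 316, cingulin (CGN) from 433 to 326 and MAGI3 from 348 to 264. CGN and MAGI3 each had a probe set above 0, the highest at 0.20 and 0.85. YBX3, the transcription factor that binds ZO-1, went from 21385 to 16315. All 4 of its probe sets were under 0, with differences from -1.34 to -0.32. ARHGAP17 went from 1882 to 1491. Some genes of this list were not analysed here.

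All 18 genes of the polarity complexes were measured, with a median of -0.11 and a range from -0.47 to 0.64. Of them 0 were past 2-fold, where 2.53% of all measured genes were higher and 3.08% lower by as much. LIN7C, a PDZ protein of the Crumbs complex, went from 4894 to 7084, and LIN7A from 211 to 328. The probe sets of LIN7A that passed the floor had differences from -0.14 to 0.64. LIN7B was at 0.35 by one probe set and -0.78 by the other. PARD6A went from 215 to 155, and CDC42, the GTPase that activates the PAR complex, from 3506 to 3143. For CDC42 too the probe sets lay on both sides of 0, from -0.16 to 0.20.

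**Figure D4:**
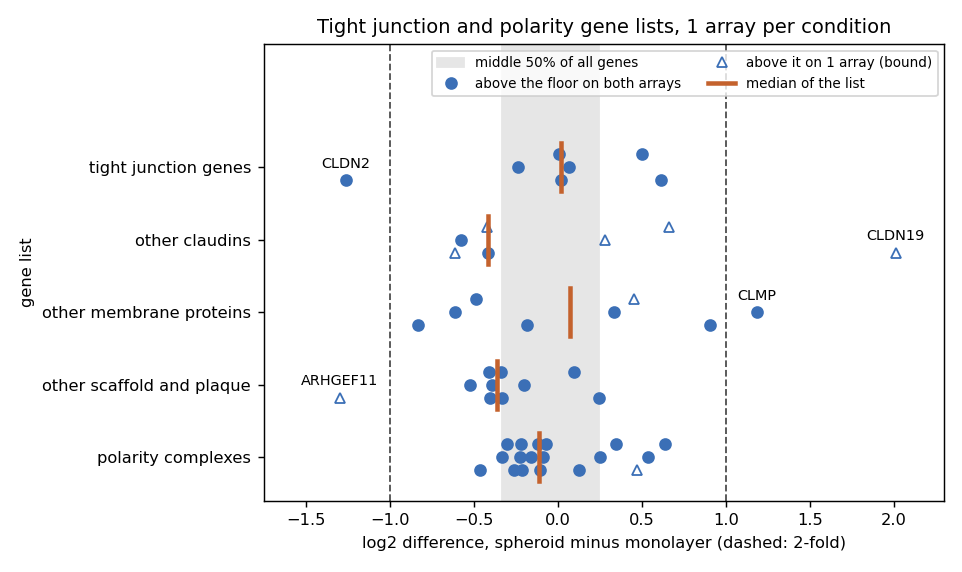
Log2 difference between the spheroid and the monolayer array for measured genes of the tight junction list and of 4 lists of related genes, with the median of each list (thick line) and the middle 50% of all measured genes (grey band, -0.33 to 0.25, a spread of single genes and not of medians). Filled dots are genes that passed the floor in both cultures, and open triangles are bounds. CLDN2, CLDN19, CLMP and ARHGEF11 lie past the dashed 2-fold lines, and 8 of 10 scaffold genes lie under 0.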

How the data were processed

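Gene microarray was performed on RNA of HT-29 monolayer cells and spheroids, 1 array per condition in the table analysed here. The authors generated the deposited signal intensities with the MAS5 method in Affymetrix Expression Console, on a linear scale with equal trimmed means (500.1 on both arrays, 2% of probe sets trimmed at each end), so a change of the whole RNA pool is not measured. No detection calls were used, and the number of arrays limits the precision.

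From these intensities the values were computed with pandas 2.3.3 and numpy 2.4.6 under Python 3.11.15, and plots were drawn with matplotlib 3.10.9. The annotation gives 1 gene for 41097 of 54675 probe sets. It gives several for 1801, which were not used, and 11777 stay unnamed. Gene numbers of 41043 matched the GRCh38.p14 RefSeq table, used for current symbols, for overlapping genes and for promoter sequence, and the 8 genes with a probe set each had a promoter entry. The floor was set at the 50th percentile of signals. A gene below it in 1 culture has a bound. The 2-fold threshold follows the study's methods.

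All 9 genes are named with every probe set. In 4 further lists (other claudins, other membrane proteins, other scaffold and plaque genes, polarity complexes) genes past 2-fold are named, then up to 4 with the largest difference among those that passed the floor in both cultures, and the 2 with the highest signal. The members and lists were chosen with earlier results of these data known. The computation was tested on simulated data with changes put only into genes above the 75th percentile of signal. That test does not cover genes near the floor, such as CLDN2. The settings changed in turn were the scaling (median, quantile, GAPDH, hybridization spike-ins), the floor (none, 75th percentile, olfactory receptors), the probe set used (median, largest difference, plain names), a pseudocount of 15.9 and the threshold (1.5-fold and 3-fold).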

Additional observations from a re-analysis of the deposited data

How the results depend on the processing

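The count of tight junction genes at least 2-fold lower was 1 (CLDN2), and 0 with the floor from olfactory receptors, 0 with the floor at the 75th percentile, where CLDN2 was below it on both arrays and gave no value, and 0 at a 3-fold threshold. Of all 13183 measured genes 60 were at least 3-fold lower. The count of tight junction genes at least 2-fold higher was 0, and 1 at a 1.5-fold threshold (CLDN4), which 1256 of the 13183 reached. In the other 33 of 37 alternatives to these counts and to the median difference, the counts were as given. The median difference was 0.02 as deposited, -0.05 with equal medians and 0.27 after scaling to the spike-ins, so its sign depended on the scaling. It moved by less than 0.41, the SD of probe sets around the mean of their gene. That SD is a spread of single probe sets and not of a median over genes. CLDN2 was under 0 in each of the 10 alternatives that gave it a value, from -1.32 to -0.78, and CLDN4 and CLDN12 were above 0 in each of 11. Each of these genes had 1 probe set of its own above the floor, so the choice of probe set could not move it. For CLDN4 and CLDN12 the floors tried could not either. With each gene's most different probe set OCLN was at 0.90 and TJP1 at -0.64. Scaling to the spike-ins moved the median of all measured genes from -0.05 to 0.18, and of all genes past 2-fold 78.7% were then higher, against 45.1% as deposited and 34.0% with equal medians. Without a floor, where dim genes are included, 5 of the 14 other claudins with a probe set were higher by 2-fold or more and 4 were lower, against 1 and 0. Of all 19775 genes, 2476 were then higher and 2502 lower by as much. Of the 18 polarity genes 1 was higher and 2 were lower past 2-fold by their most different probe sets, against 0 and 0. Among the 13261 genes read in that way, 791 were higher and 716 lower. With 1 array per condition neither culture nor array variation was measured, and the SD of probe sets within a gene holds neither.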
